A study of Homo sapiens with 12 samples.

Results

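The proteasome genes were taken as all genes whose annotated symbol begins with PSM, a letter from A to G and a digit, each read from the probe set with the highest mean over the 12 arrays. The rule found 50 of the 19775 genes that the array names by a single symbol, and 46 of them passed the filter on low values (log2 above 4 on at least 3 arrays) and were tested among 10907 genes. Of the 50, 42 are genes of the proteasome, its activators or its assembly factors, and the other 8 only share the letters or lie beside such a gene: PSMC3IP, a recombination protein, PSME3IP1, a partner of the activator PSME3, and 6 non-coding RNAs. The 4 genes not tested were PSMA8, a core subunit of the testis with a mean log2 of 3.05, and the RNAs PSMD7-DT, PSMD14-DT and PSMG3-AS1. The tested proteasome genes comprised 13 subunits of the 20S core, 14 subunits of the 19S regulatory particle, the 3 interferon-inducible catalytic subunits, 3 activators, 7 assembly chaperones and the regulator PSMF1. PSMA6 and PSME2 share their probe sets with another gene and were not analysed here. No probe set was named by the symbol of PSMC5, PSMD7, PSMD13 or PSMB11 alone, so these were not analysed either. Of 14 listed core subunits 1 is therefore absent, and of 17 listed 19S subunits with PSM symbols 3 are. ADRM1 and SEM1, 19S subunits with other symbols, lie outside the rule and are given with the partners of the proteasome below.

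The study asked how HK-2, an immortal epithelial line from the proximal tubule of the human kidney, respond to compounds that harm the kidney. The 4 groups were cells given Nnm at its low dose for 24 h, vehicle controls of 24 h, cells given the same for 48 h and vehicle controls of 48 h, with 3 arrays each, labelled as biological replicates. The labels name the compound only as Nnm and the dose only as low. All cells were grown in medium with EGF, hydrocortisone, insulin, transferrin and selenite and were nearly confluent when treated. Expression is given as GCRMA log2 values, so that a change of 1 is a factor of 2, and every change is Nnm minus the control of the same time unless another contrast is named.

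The proteasome degrades proteins that carry ubiquitin chains. Its 20S core is a barrel of outer alpha rings and inner beta rings, and the beta subunits PSMB5, PSMB6 and PSMB7 carry the proteolytic sites. The 19S particle caps the barrel: its base holds a ring of ATPases (PSMC genes) that unfold substrates, and its lid holds the deubiquitinase PSMD14. Cells can exchange the 3 catalytic subunits for PSMB8, PSMB9 and PSMB10, which interferon induces and which favour peptides for antigen presentation. Transcription of the constitutive genes is known to be raised by NFE2L1 when proteasome activity is limiting, through antioxidant response elements in their promoters.

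The promoters of 5 members that changed are shown as examples: PSMB9 is the proteasome gene that rose, and PSMA3, PSMB3, PSMC4 and PSME3 are members of the alpha ring, the beta ring, the ATPase ring and the activators that fell. Each window runs from 250 bases before to 50 bases after the RefSeq gene start (GRCh38.p14), 5′ to 3′ on the gene's strand, and capitals mark matches to the core of the antioxidant response element, TGACNNNGC, or to CCAAT, either one in reverse complement where the match lies on the opposite strand.
PSMB9, chr6:32853942-32854241, plus strand: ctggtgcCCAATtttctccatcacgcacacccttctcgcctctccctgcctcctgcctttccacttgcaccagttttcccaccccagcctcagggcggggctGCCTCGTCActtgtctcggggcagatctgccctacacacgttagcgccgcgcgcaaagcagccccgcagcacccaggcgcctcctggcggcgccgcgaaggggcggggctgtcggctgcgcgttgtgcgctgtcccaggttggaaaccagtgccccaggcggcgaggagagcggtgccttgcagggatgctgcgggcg
PSMA3, chr14:58244593-58244892, plus strand: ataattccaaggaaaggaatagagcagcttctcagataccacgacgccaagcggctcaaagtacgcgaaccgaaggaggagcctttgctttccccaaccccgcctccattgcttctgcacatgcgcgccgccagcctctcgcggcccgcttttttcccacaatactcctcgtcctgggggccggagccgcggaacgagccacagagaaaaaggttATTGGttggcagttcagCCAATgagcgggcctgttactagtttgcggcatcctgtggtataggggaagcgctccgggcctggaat
PSMB3, chr17:38752491-38752790, plus strand: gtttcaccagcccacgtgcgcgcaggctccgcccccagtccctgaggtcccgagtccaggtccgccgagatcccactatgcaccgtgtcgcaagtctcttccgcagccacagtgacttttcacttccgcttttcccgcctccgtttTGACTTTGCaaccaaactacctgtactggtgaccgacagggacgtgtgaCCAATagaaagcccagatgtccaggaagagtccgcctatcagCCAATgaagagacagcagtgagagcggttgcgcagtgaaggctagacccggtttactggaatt
PSMC4, chr19:39970915-39971214, plus strand: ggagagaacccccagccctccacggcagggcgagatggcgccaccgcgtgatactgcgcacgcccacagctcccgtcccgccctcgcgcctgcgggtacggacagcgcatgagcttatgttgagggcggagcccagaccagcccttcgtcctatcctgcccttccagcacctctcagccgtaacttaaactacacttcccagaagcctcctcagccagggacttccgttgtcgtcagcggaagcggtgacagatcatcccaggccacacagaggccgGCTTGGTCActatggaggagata
PSME3, chr17:42833147-42833446, plus strand: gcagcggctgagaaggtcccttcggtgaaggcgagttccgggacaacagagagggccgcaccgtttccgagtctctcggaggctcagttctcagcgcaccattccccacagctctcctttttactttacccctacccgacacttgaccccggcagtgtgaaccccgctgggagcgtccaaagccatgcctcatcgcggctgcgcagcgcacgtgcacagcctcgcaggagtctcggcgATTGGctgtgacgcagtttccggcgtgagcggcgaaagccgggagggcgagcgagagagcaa
Windows were found for 43 of the 50 members. TGACNNNGC was present in 12 of the 36 proteasome genes with a window (33.3%) and in 13.56% of 27305 RefSeq promoters of the same length. In the core subunits it was present in 1 of 9 windows, that of PSMB3, where it begins 104 bases before the start, and in the 19S subunits in 4 of 13. CCAAT was present in 16 of the 36 (44.4%), in 6 of 9 core and 6 of 13 19S windows, and in 35.7% of all promoters. The 12 tested proteasome genes with TGACNNNGC had a median change of -0.23 at 24 h and -0.17 at 48 h, and the 23 without it -0.31 and -0.29. A match is a description of the letters in the window and no evidence of binding.

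The cells carried 6 of 6 epithelial markers, but of 10 proximal tubule markers only DPP4, a brush border peptidase, was above the filter (mean log2 12), while LRP2, CUBN and AQP1 were below 4 on every array. Of 8 leukocyte markers on the array only CD74 passed, with PTPRC, CD3E and CD14 below 4 on every array. The fibroblast list passed in 4 of 9 genes (VIM, DCN, LUM and COL1A1) and the endothelial list in 1 of 5 (PECAM1, mean log2 4.26). The mean log2 of the fibroblast list ranged from 6.58 to 6.67 with Nnm and from 6.63 to 6.72 in controls at 24 h, and from 6.48 to 6.53 with Nnm and from 6.45 to 6.56 in controls at 48 h. The mean log2 of the epithelial list ranged from 10.39 to 10.88 with Nnm and from 10.69 to 11.08 in controls at 24 h. At 48 h it ranged from 10.29 to 10.69 with Nnm and from 10.48 to 11.01 in controls. The mean of the leukocyte list stayed between 3.22 and 3.37 on all arrays, but all its genes except CD74 were below the filter. CD74 changed by 0.29 at 24 h and 0.59 at 48 h and did not pass in limma. With the replicate block CD74 was higher at 48 h (adjusted p = 0.010). Of single markers, DPP4 rose at 24 h (0.77) and 48 h (1.19), and the keratin gene KRT8 fell over both times (-0.63, adjusted p = 0.039). COL1A1 fell at 48 h (-0.53, adjusted p = 0.049), where LUM (0.47), VIM (0.27) and DCN (0.22) had positive changes that did not pass. With the replicate block LUM and PECAM1 (0.46) were higher at 48 h (adjusted p = 0.045 and 0.027). Under that fit KRT8 fell at 24 h (-0.57, adjusted p = 0.0055) and 48 h (-0.70, adjusted p = 0.0038). KRT18 (-0.46, adjusted p = 0.0084) and KRT7 (-0.71, adjusted p = 0.035) fell at 24 h. Over both times 4 of 6 epithelial markers fell with the block, where 24.6% of all genes did. The part of cell type or state in the results was not tested. On the first principal component, with 50.3% of the variance, the Nnm replicate 2 arrays stood at -1.55 (24 h) and -3.28 (48 h), apart from the other Nnm arrays at -43.2 to -31.2 and from the controls at 18.6 to 34.4. The 5′ minus 3′ signal of ACTB, a measure of RNA integrity, lay between -1.17 and -1.09 for the 4 arrays of replicate 2, and between -0.863 and -0.736 for the other 8 arrays. In total RNA, fewer cells and less RNA per cell cannot be told apart.

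Proteasome transcripts were mostly lower with Nnm. Averaged over both times, 23 of the 46 members fell and 2 rose at an adjusted p below 0.05 (limma, adjusted over all 10907 genes), where 16.9% of all genes fell and 20.4% rose. With the replicate number as a block, 29 members fell and 3 rose, where 24.6% of all genes fell and 52.6% changed in either direction. The falls were small: the median change over the 13 core subunits was -0.29, over the 14 19S subunits -0.36 and over all genes 0.02. Of 13 core subunits 9 fell, and of 14 19S subunits 10 fell. The members that rose were PSMB9, the interferon-inducible catalytic subunit also called LMP2, and PSMB8-AS1, a non-coding RNA of the same locus.

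**Figure D1:**
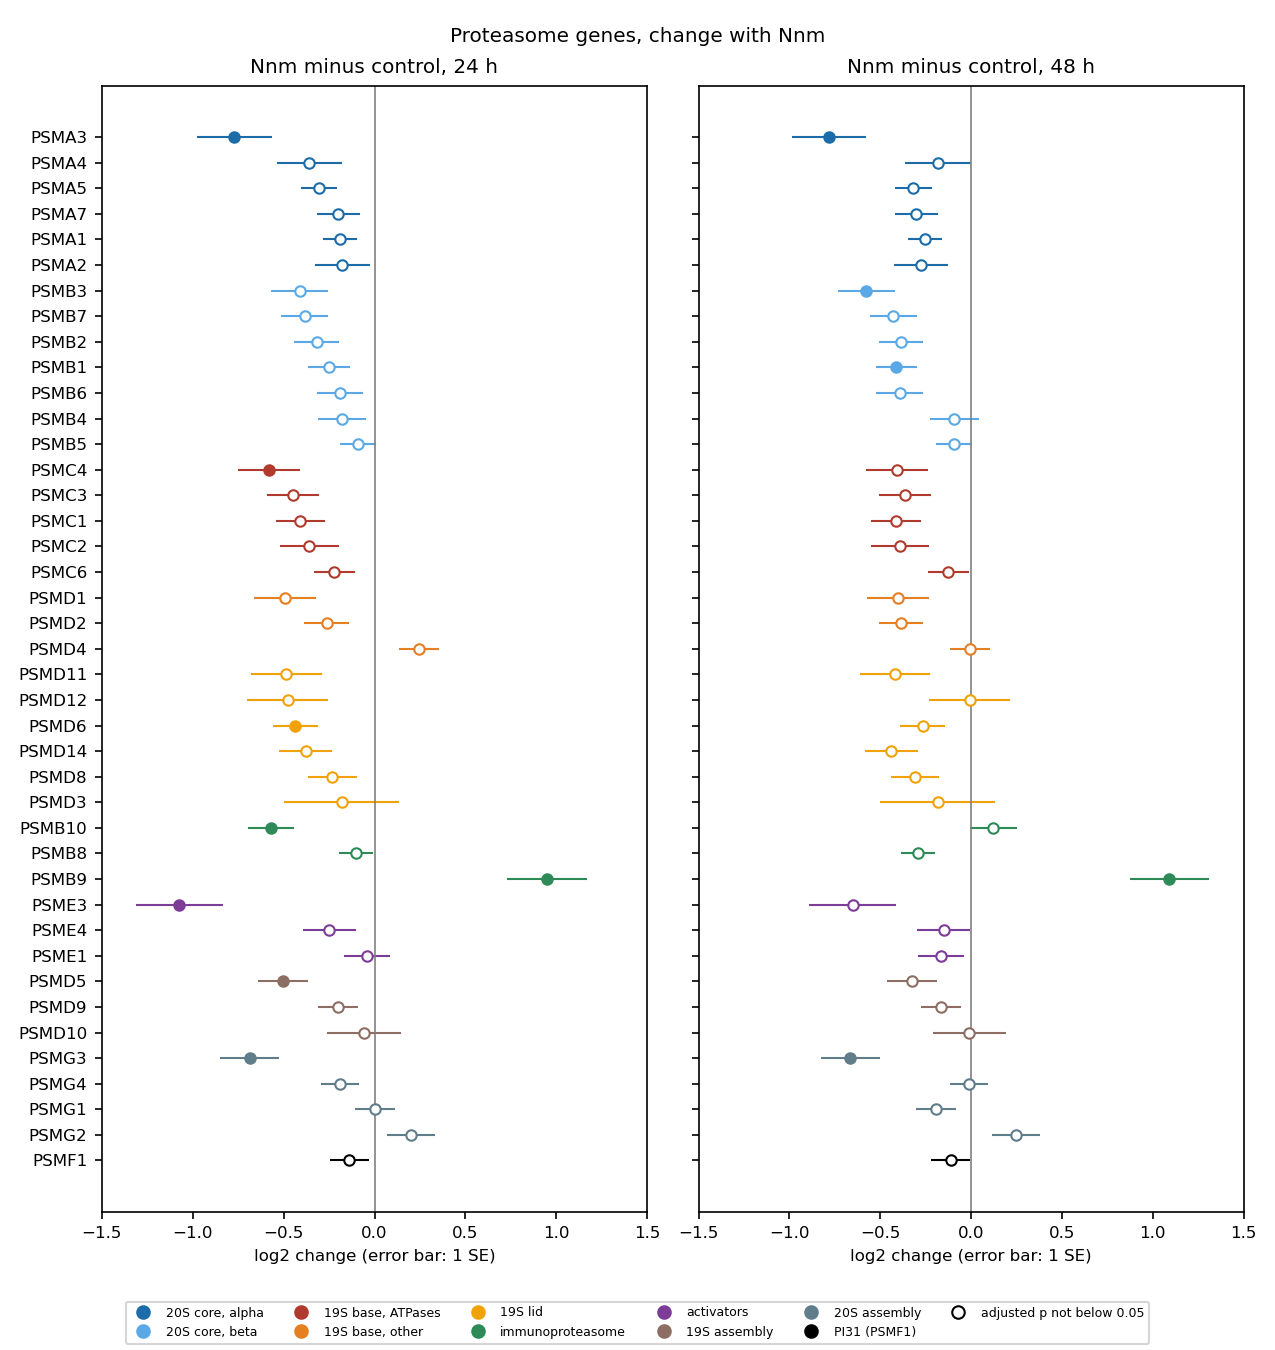
Change in log2 expression with Nnm against the control of the same time for the 41 tested proteasome genes, at 24 h (left) and 48 h (right). Points are limma estimates from 3 arrays a group, bars are 1 SE, colours give the role and open points did not pass an adjusted p of 0.05. At 24 h 37 and at 48 h 38 of the 41 points lie left of 0, and PSMB9 is the only filled point right of it.

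At 24 h, 7 members fell (PSMA3, PSMB10, PSMC4, PSMD5, PSMD6, PSME3 and PSMG3) and 2 rose (PSMB9 and PSMB8-AS1), where 8.85% of all genes fell and 10.6% rose. With the replicate block 20 fell and 2 rose, where 18.8% of all genes fell and 38.8% changed in either direction. The direction was shared more widely: 40 of 46 members had a negative change, beside 48.7% of all genes, and all 3 Nnm values lay below all 3 control values in 24 members, beside 18.7% of all genes. In the fit without the block, calls were lost when some single arrays were left out. The 9 calls became 0 without Nnm replicate 3 of 24 h or without control replicate 3 of 24 h, 3 without Nnm replicate 1 and 2 without control replicate 1.

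At 48 h, 4 members fell (PSMA3, PSMB1, PSMB3 and PSMG3) and the same 2 rose, where 5.34% of all genes fell and 8.45% rose. The replicate block gave 23 that fell and 2 that rose, where 13.7% of all genes fell and 32.2% changed in either direction. A negative change was found in 39 of 46 members, beside 47.9% of all genes, and the Nnm arrays lay wholly below the controls in 19, beside 15.8% of all genes. Leaving out Nnm replicate 1, Nnm replicate 3, control replicate 1 or control replicate 3 of 48 h left 0, 1, 1 and 2 calls, and leaving out Nnm replicate 2 of 48 h gave 14. For the mean of both times the count stayed between 18 and 26 with any 1 array left out. The members that lost this call without some 1 array were PSMA1 (adjusted p up to 0.058), PSMA7 (0.089), PSMB6 (0.069), PSMC2 (0.064), PSMD8 (0.106) and PSMD11 (0.063), each at its highest without control replicate 3 of 48 h, and PSMB8 (0.082, without Nnm replicate 3 of 24 h). Over all 22 alternatives PSMD8 lost it in 14, PSMA7 in 10, PSMB8 in 8, PSMB6 and PSMD11 in 7, PSMC2 in 6 and PSMA1 in 3.

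Strongly hybridised genes leaned slightly downward, and the members were compared with them too, a choice made after seeing the data. Among all 2687 genes with a mean log2 above 10, the median change was -0.05 at 24 h and -0.03 at 48 h, and 56.0% and 54.4% were negative. Of the 37 proteasome genes above that level, 91.9% were negative at 24 h and 97.3% at 48 h. For the mean of both times 59.5% of them fell, beside 22.2% of all genes above that level.

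In the outer rings of the core, all 6 alpha subunits tested had negative changes at both times. PSMA3 changed most among them. It stood at 11.21, 11.84 and 11.54 on the Nnm 24 h arrays, against 12.19, 12.40 and 12.32 on the control 24 h arrays. At 48 h it was 10.89, 11.70 and 11.25 with Nnm, against 11.90, 12.13 and 12.16 in controls. The groups did not overlap at either time, and Nnm replicate 2 was the highest Nnm array at both. PSMA3 was 1.71-fold lower at 24 h (log2 change -0.77, SE 0.21, adjusted p = 0.028) and 1.72-fold lower at 48 h (-0.78, SE 0.21, adjusted p = 0.033). The adjusted p reached 0.103 without Nnm replicate 1 at 24 h and 0.119 without it at 48 h. Over both times PSMA5 (-0.31, SE 0.07, adjusted p = 0.0075), PSMA7 (-0.25, SE 0.08, adjusted p = 0.038) and PSMA1 (-0.22, SE 0.07, adjusted p = 0.023) also fell, while PSMA4 (-0.27) and PSMA2 (-0.23) passed only with the replicate block (adjusted p = 0.0051 and 0.0097). The probe sets read for PSMA1 and PSMA7 are of a class that can bind related transcripts.

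In the inner rings, PSMB3 and PSMB1, structural beta subunits without a proteolytic site, fell at 48 h. PSMB3 was 11.39, 11.83 and 11.79 on the Nnm 48 h arrays and 12.13, 12.05 and 12.56 on the control 48 h arrays, with no overlap. That is 1.49-fold lower (-0.58, SE 0.16, adjusted p = 0.036), and at 24 h the change was -0.41 (adjusted p = 0.086). PSMB1 was 12.78, 13.15 and 12.94 with Nnm at 48 h, against 13.29, 13.38 and 13.44 in controls, also without overlap (-0.41, SE 0.11, adjusted p = 0.038; -0.25 at 24 h). Without Nnm replicate 1 of 48 h the adjusted p was 0.132 for PSMB3 and 0.138 for PSMB1. Averaged over both times PSMB2, another structural beta subunit, fell as well (-0.35, SE 0.09, adjusted p = 0.010), and PSMB4 did not pass (-0.14, adjusted p = 0.28). The probe set read for PSMB4 changed by -0.18 at 24 h and -0.09 at 48 h. A dimmer PSMB4 probe set (mean log2 8.48) changed by -0.64 and -0.87, and another by -0.13 and -0.00.

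Of the 3 constitutive proteolytic subunits 2 fell over both times. PSMB7, the trypsin-like site, fell over both times (-0.41, SE 0.09, adjusted p = 0.0069), with 12.52, 12.67 and 12.70 under Nnm at 24 h against 12.82, 13.06 and 13.15 in controls, and 12.26, 12.56 and 12.47 under Nnm at 48 h against 12.69, 12.91 and 12.98 in controls. PSMB6, the caspase-like site, fell over both times (-0.29, SE 0.09, adjusted p = 0.027), and its Nnm arrays lay below the controls at each time. For PSMB5, the chymotrypsin-like site and the main target of proteasome inhibitor drugs, the changes were -0.09 at 24 h and -0.09 at 48 h (adjusted p = 0.55 and 0.56), and the groups overlapped at both times. Differences between these genes in their change were not tested.

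Their interferon-inducible counterparts went different ways. PSMB9, which takes the place of PSMB6, stood at 9.34, 8.37 and 9.14 with Nnm at 24 h, against 8.0, 8.15 and 7.85 in controls. At 48 h it was 8.93, 8.61 and 9.02 with Nnm, against 7.69, 7.84 and 7.75 in controls. The groups did not overlap at either time, and Nnm replicate 2 was the lowest Nnm array at both. PSMB9 rose 1.93-fold at 24 h (log2 change 0.95, SE 0.22, adjusted p = 0.017) and 2.13-fold at 48 h (1.09, SE 0.22, adjusted p = 0.014). With 1 array left out its adjusted p reached 0.073 at 24 h (without control replicate 3) and 0.056 at 48 h (without Nnm replicate 1), while for the mean of both times (1.02, adjusted p = 0.0013) it passed under all 22 alternatives run.

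PSMB10, which takes the place of PSMB7, was 8.28, 8.31 and 8.12 with Nnm at 24 h, against 8.75, 8.74 and 8.92 in controls, a fall without overlap (-0.57, SE 0.13, adjusted p = 0.016; 0.072 without control replicate 3). At 48 h it was 8.46, 8.30 and 8.63 with Nnm, against 8.21, 8.25 and 8.56 in controls, and the groups overlapped (0.12, adjusted p = 0.55). PSMB8, which takes the place of PSMB5, was 10.28, 10.26 and 10.14 with Nnm at 48 h, against 10.50, 10.53 and 10.54 in controls (-0.29, SE 0.09, adjusted p = 0.057), and 10.13, 10.12 and 9.98 with Nnm at 24 h, against 10.20, 10.24 and 10.09 in controls (-0.10, adjusted p = 0.45). Over both times PSMB8 fell (-0.20, SE 0.06, adjusted p = 0.035), a call lost in 8 of 22 alternatives. PSMB10 changed by -0.22 over both times, with an adjusted p of 0.075, or 0.042 with the replicate block.

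**Figure D2:**
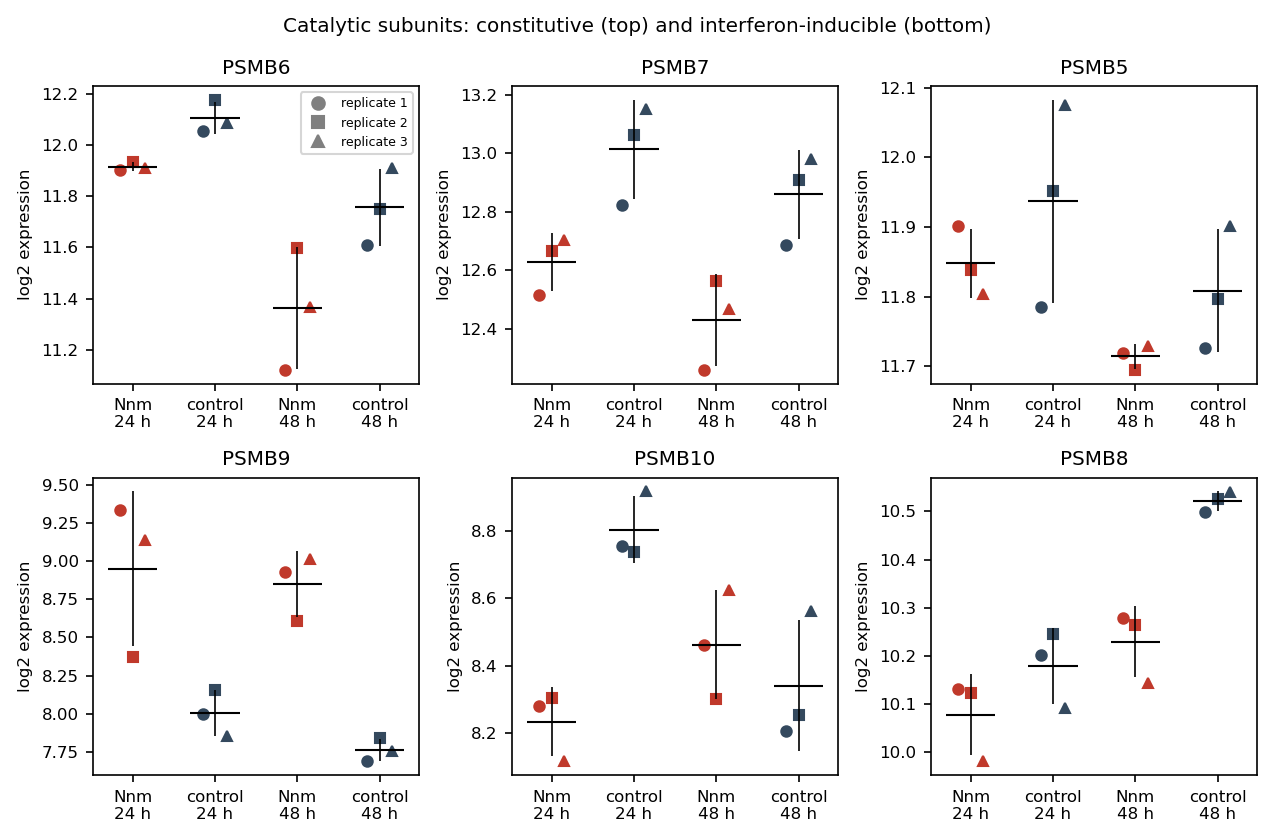
Log2 expression of the constitutive catalytic subunits (top) and of the interferon-inducible subunit that replaces each (bottom) on all 12 arrays, by group. Marker shapes give the replicate number, horizontal lines the mean and vertical lines 1 SD of 3 arrays; each panel has its own axis. Only PSMB9 is higher with Nnm at both times, at 8.37 to 9.34 against 7.69 to 8.15 in controls.

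PSMB8-AS1, a non-coding RNA whose RefSeq gene model overlaps PSMB8 and TAP1 and which lies next to PSMB9 but for TAP1, was 6.01, 6.62 and 6.71 with Nnm at 24 h, against 5.88, 5.70 and 5.43 in controls. At 48 h it was 7.20, 6.75 and 7.00 with Nnm, against 6.16, 5.66 and 5.70 in controls. It rose at 24 h (0.78, SE 0.21, adjusted p = 0.031) and at 48 h (1.15, SE 0.21, adjusted p = 0.012), while PSMB8, which it overlaps, fell over both times. Without control replicate 3 its adjusted p at 24 h was 0.121.

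In the 19S particle the tested ATPases fell together. Over both times 4 of the 5 tested passed, PSMC4 (-0.49, SE 0.12), PSMC1 (-0.41, SE 0.10), PSMC3 (-0.41, SE 0.10) and PSMC2 (-0.38, SE 0.11), with adjusted p of 0.0099, 0.0085, 0.011 and 0.026. PSMC6 did not (-0.17, adjusted p = 0.11), except with the replicate block (adjusted p = 0.049). PSMC4 was 9.95, 9.92 and 10.19 with Nnm at 24 h, against 10.52, 10.36 and 10.92 in controls, and 9.63, 9.83 and 9.97 with Nnm at 48 h, against 10.12, 10.06 and 10.46 in controls. It was 1.49-fold lower at 24 h (-0.58, SE 0.17, adjusted p = 0.038; 0.140 without control replicate 3), and at 48 h the change was -0.41 (adjusted p = 0.13), with no overlap at either time. Of the other base subunits, the scaffold proteins PSMD1 (-0.45, SE 0.12, adjusted p = 0.015) and PSMD2 (-0.32, SE 0.09, adjusted p = 0.015) fell over both times. PSMD4, a ubiquitin receptor, was the exception of the particle at 24 h, at 11.83, 11.49 and 11.77 with Nnm against 11.42, 11.48 and 11.44 in controls (0.24, adjusted p = 0.13), and its 48 h change was 0.00.

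In the lid, 4 of the 6 subunits tested fell over both times: PSMD6 (-0.35, SE 0.09, adjusted p = 0.011), PSMD14, the deubiquitinase (-0.41, SE 0.10, adjusted p = 0.012), PSMD11 (-0.45, SE 0.14, adjusted p = 0.025) and PSMD8 (-0.27, SE 0.09, adjusted p = 0.045). PSMD6 was 11.31, 11.44 and 11.49 with Nnm at 24 h, against 11.72, 11.83 and 11.98 in controls, and alone among the lid subunits it passed at 24 h by itself (-0.44, SE 0.12, adjusted p = 0.034; 0.127 without control replicate 3). PSMD12 had changes of -0.48 at 24 h and -0.01 at 48 h, and PSMD3 of -0.18 and -0.19, and neither passed. With the replicate block PSMD12 was lower at 24 h (adjusted p = 0.0098) and over both times (adjusted p = 0.024). At 48 h 0 of 14 19S subunits passed the limma test, 8 were lower at an unadjusted p below 0.05 (13.8% of all genes were), and 10 fell with the replicate block (13.7% of all genes did).

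**Figure D3:**
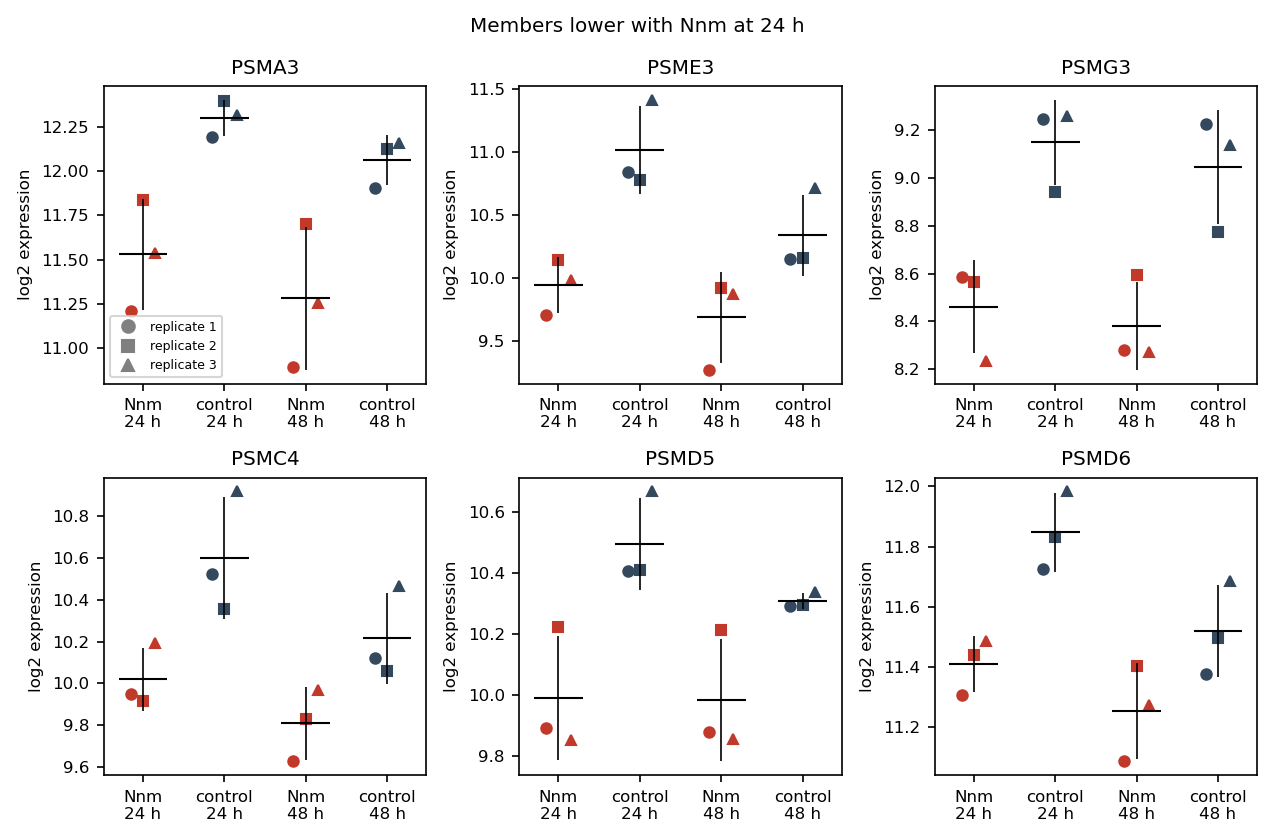
Log2 expression of 6 of the 7 members that fell at 24 h, on all 12 arrays by group. Marker shapes give the replicate number, horizontal lines the mean and vertical lines 1 SD of 3 arrays; each panel has its own axis. At 24 h every Nnm array lies below every control array in all 6 panels.

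Set side by side, the 19S particle was lowered somewhat more than the core at 24 h and by about the same at 48 h. At 24 h the median change was -0.25 over the 13 core subunits (range -0.77 to -0.09) and -0.39 over the 14 19S subunits (range -0.58 to 0.24), beside 0.01 over all genes. At 48 h the medians were -0.32 for the core (range -0.78 to -0.09) and -0.38 for the 19S particle (range -0.44 to 0.00), beside 0.02 over all genes. Between arrays of the same replicate number, the core's median change minus that of the 19S particle was 0.132, 0.133 and 0.132 at 24 h, and 0.0523, 0.0172 and 0.0108 at 48 h. It was positive in all 6 pairs, but at 48 h its sign depended on the summary. Each Nnm array was also set against the mean of the controls of its time. The core and 19S medians were then -0.52 and -0.53 for replicate 1 of 48 h, -0.19 and -0.16 for replicate 2, and -0.29 and -0.25 for replicate 3. At 24 h that summary gave core and 19S medians of -0.37 and -0.48 for replicate 1 and -0.17 and -0.40 for replicate 2. For replicate 3 it gave -0.22 and -0.29. The 19S median was thus the lower on every Nnm array of 24 h, but by amounts that varied more than between the pairs. No test was made of the difference. Tested one by one at 24 h, 1 of 13 core (7.69%) and 2 of 14 19S subunits (14.3%) fell, beside 8.85% of all genes. With the replicate block these counts were 6 and 10, beside 18.8% of all genes. At 48 h 3 core (23.1%) and 0 19S subunits fell, beside 5.34% of all genes, and with the block 10 in each particle, beside 13.7% of all genes.

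**Figure D4:**
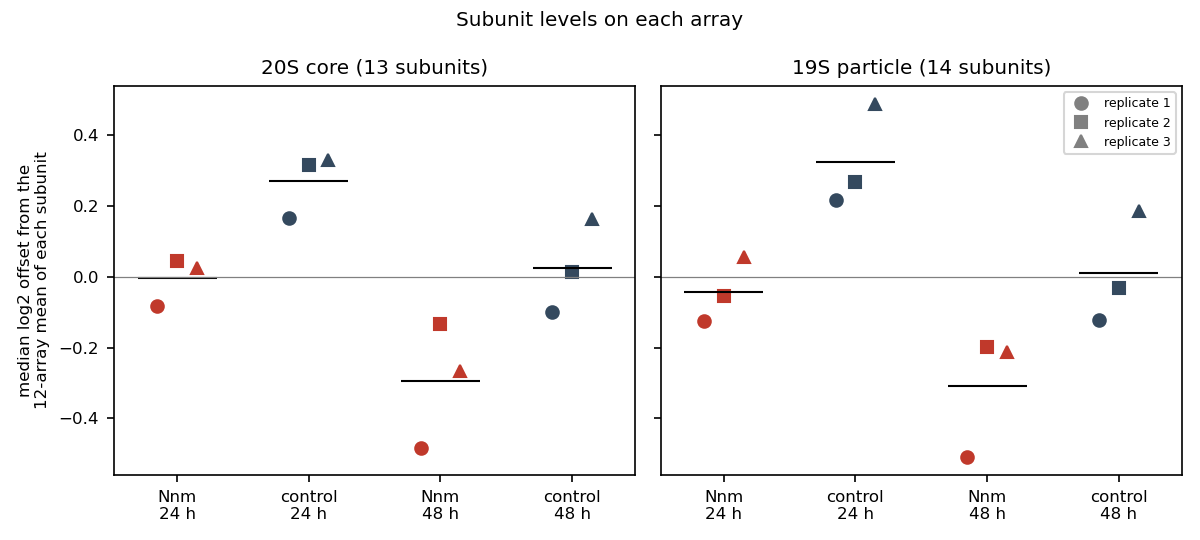
Median offset of the 13 core subunits (left) and the 14 subunits of the 19S particle (right) from their own 12-array means, in log2 units, on each array. Marker shapes give the replicate number and lines the mean of 3 arrays. In both panels the Nnm 24 h arrays lie near the control 48 h arrays, the control 24 h arrays are highest and the Nnm 48 h arrays lowest.

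The subunits were also lower at the later time within each treatment. In control cells of 48 h against control cells of 24 h, all 13 core subunits (median -0.24) and all 14 19S subunits (median -0.33) had negative changes, beside a median of -0.02 over all genes. None of the 46 members passed the limma test there, where 0.128% of all genes did; 15 were past an unadjusted p of 0.05, 14 of them lower, where 15.7% of all genes were past it and 8.68% were lower. With the replicate block 9 members were lower and PSMB8 was higher (0.34), where 8.47% of all genes changed in either direction. Between Nnm cells of 48 h and Nnm cells of 24 h the medians were -0.25 for the core and -0.28 for the 19S particle. Again 0 members passed (11 were past an unadjusted p of 0.05, where 10.8% of all genes were; 0.119% of all genes passed), and with the block 4 were lower (PSMB6, PSMD2, PSMA7 and PSMB3), where 2.29% of all genes changed.

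Expressed as the median offset from each subunit's 12-array mean, the core stood at -0.00 ± 0.07 with Nnm at 24 h and 0.27 ± 0.09 in controls of 24 h, and at -0.29 ± 0.18 with Nnm at 48 h and 0.03 ± 0.13 in controls of 48 h (mean ± SD, n = 3 each). The 19S particle stood at -0.04 ± 0.09 with Nnm at 24 h and 0.33 ± 0.14 in controls of 24 h, and at -0.31 ± 0.18 with Nnm at 48 h and 0.01 ± 0.16 in controls of 48 h. The means of Nnm at 24 h and of controls at 48 h lay less than 1 SD apart for both particles, and that contrast was not tested. Within each group replicate 1 was the lowest array for the core.

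The Nnm change itself was not shown to differ between the times. None of the 46 members passed the limma test of that difference, 2 were past an unadjusted p of 0.05 (PSMB10 and PSMC3IP), where 6.40% of all genes were, and 0% of all genes passed, or 0.0183% with the block, under which 0 members passed. PSMB10 had the largest such difference (0.69, SE 0.18, adjusted p = 0.70). PSMC3IP, the recombination protein, followed (0.59, SE 0.27, adjusted p = 0.78), with changes of -0.32 at 24 h and 0.27 at 48 h that did not pass. The 24 h and 48 h values have separate controls.

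**Figure D5:**
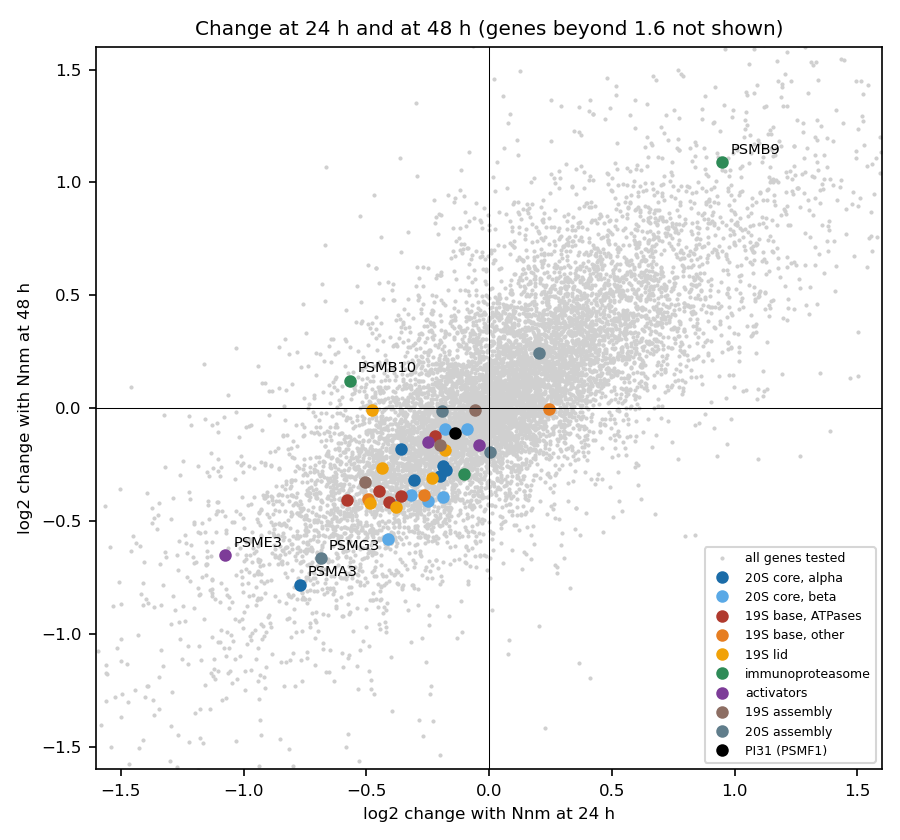
Log2 change with Nnm at 24 h (horizontal) and at 48 h (vertical) for the 41 tested proteasome genes, coloured by role, over all tested genes in grey. Most proteasome genes lie at the lower left; PSMB9 lies in the upper right and PSMB10 left of 0 at 24 h and above 0 at 48 h.

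Among the activators, which open the core without ubiquitin or ATP, PSME3 (PA28 gamma, the nuclear form) had the largest fall of all members at 24 h and over both times. It was 9.70, 10.14 and 9.98 with Nnm at 24 h, against 10.85, 10.78 and 11.42 in controls, and 9.27, 9.92 and 9.87 with Nnm at 48 h, against 10.15, 10.16 and 10.71 in controls. The groups did not overlap at either time. PSME3 was 2.11-fold lower at 24 h (-1.07, SE 0.24, adjusted p = 0.016; 0.069 without control replicate 3), and the 48 h change was -0.65 (SE 0.24, adjusted p = 0.088). All 4 of its kept probe sets were lower at both times, by -1.31 to -0.86 at 24 h and by -1.07 to -0.49 at 48 h. The probe set read for PSME3 is also of the class that can bind related transcripts. PSME4, the PA200 activator, had changes of -0.25 and -0.15 and PSME1, the interferon-inducible PA28 alpha, of -0.04 and -0.16, none of which passed. PSMF1, known as PI31, changed by -0.14 and -0.11 and did not pass.

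Of the chaperones that build the core, PSMG3 fell and its 3 companions did not pass. PSMG3 was 8.58, 8.57 and 8.24 with Nnm at 24 h, against 9.25, 8.94 and 9.26 in controls, and 8.28, 8.60 and 8.27 with Nnm at 48 h, against 9.23, 8.78 and 9.14 in controls. It was 1.61-fold lower at 24 h (-0.69, SE 0.16, adjusted p = 0.018) and 1.58-fold lower at 48 h (-0.66, SE 0.16, adjusted p = 0.025), without overlap at either time. With 1 array left out its adjusted p reached 0.078 at 24 h (without control replicate 3) and 0.096 at 48 h (without Nnm replicate 1). Its dimer partner PSMG4 had changes of -0.19 at 24 h and -0.01 at 48 h, and the other dimer, PSMG1 and PSMG2, had 0.00 and -0.19, and 0.20 and 0.25. Over both times PSMG2 was higher with the replicate block only (0.22, adjusted p = 0.028, and 0.082 without the block).

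Of the chaperones of the 19S base, PSMD5 fell at 24 h. It was 9.89, 10.22 and 9.85 with Nnm, against 10.41, 10.41 and 10.67 in controls (-0.50, SE 0.14, adjusted p = 0.030; 0.118 without control replicate 3). The 48 h change was -0.33 (adjusted p = 0.13). Over both times PSMD5 fell (-0.42, SE 0.10, adjusted p = 0.0083), a call kept under all 22 alternatives. PSMD9 (-0.20 and -0.17) and PSMD10, also called gankyrin (-0.06 and -0.01), did not pass at either time.

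The choice of probe set bore on the size of the falls. For 12 core and 19S subunits the array kept 17 further probe sets, a look added after seeing the data: 15 had negative changes at 24 h and 17 at 48 h, with medians of -0.38 and -0.42 against -0.28 and -0.31 for the chosen probe sets beside them. A second PSMD12 probe set changed by -1.0 at 24 h and -0.98 at 48 h, against -0.48 and -0.01 for the chosen one, and a dim second probe set of PSMA5 (mean log2 4.82) by -2.71 and -2.80. Of 19 members with several kept probe sets, 17 had 1 direction throughout at 24 h and 15 at 48 h; directions were mixed for PSME3IP1 and PSME4 at 24 h, and PSMA3-AS1, PSMC3IP, PSMD10 and PSMF1 at 48 h.

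Genes that belong to the proteasome or work with it but carry other symbols moved in part. Of 11 such genes tested, over both times 4 fell (36.4%, beside 16.9% of all genes): USP14 (-0.54) and UCHL5 (-0.51), the deubiquitinases that ride on the 19S particle, UBE3C (-0.49), a ubiquitin ligase bound to it, and POMP (-0.40), the maturation factor of the core. The 19S subunits ADRM1 (-0.21 at 24 h and -0.25 at 48 h) and SEM1 (-0.04 and -0.05) did not pass at either time, also with the replicate block. They are not among the 19S subunits counted above. PAAF1, a 19S assembly factor, rose (0.22); it was chosen for mention after its value was seen. With the block 4 fell and 3 rose, where 24.6% of all genes fell and 52.6% changed in either direction. POMP was 12.06, 12.25 and 12.30 with Nnm at 48 h, against 12.57, 12.57 and 12.84 in controls (adjusted p = 0.029). The median over the 11 was -0.04 at 24 h and -0.19 at 48 h.

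Of 14 tested genes that encode NFE2L1, its relatives and factors known to process, restrain or compete with them, 2 rose and 2 fell over both times (14.3% each way), shares below the 20.4% and 16.9% of all genes. With the block 2 rose and 4 fell, where 24.6% of all genes fell and 52.6% changed in either direction. BTRC, a substrate receptor of a ubiquitin ligase, rose at 24 h (0.86, SE 0.15, adjusted p = 0.0085) and 48 h (0.55, SE 0.15, adjusted p = 0.040), and SEL1L, of the ligase complex of the endoplasmic reticulum, rose at 24 h (0.81, SE 0.21, adjusted p = 0.026). VCP, the ATPase that extracts proteins for the proteasome, fell at 24 h (-0.62, SE 0.16, adjusted p = 0.024), and BACH1, a repressor at antioxidant response elements, fell at 48 h (-0.46, SE 0.11, adjusted p = 0.027). NFE2L1 itself changed by 0.18 at 24 h and -0.22 at 48 h, and NFE2L2 by 0.23 and -0.01, without passing; both are named as the factors of the list. The list's median was 0.06 at 24 h and -0.10 at 48 h.

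Among 12 shuttle factors and VCP cofactors 2 fell over both times (16.7%, near the 16.9% of all genes), and 5 with the block, where 24.6% of all genes fell. UBQLN1, which carries ubiquitinated proteins to the proteasome, fell at 24 h (-0.31, SE 0.09, adjusted p = 0.036) and 48 h (-0.43, SE 0.09, adjusted p = 0.016), and NPLOC4, a VCP cofactor, fell over both times (-0.37, adjusted p = 0.026). The list's median was -0.15 at 24 h and -0.06 at 48 h. Of the 3 ubiquitin and activating enzyme genes tested, 0 passed in limma at either time or for their mean. For the mean 1 (UBA1, -0.35) was past an unadjusted p of 0.05, where 47.4% of all genes were. With the block UBA1 was lower at 24 h (-0.41, adjusted p = 0.016), where 18.8% of all genes were.

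Of 13 interferon and antigen presentation genes, 0 passed in limma at 24 h and at 48 h. At an unadjusted p below 0.05, 1 (7.69%) and 2 (15.4%) did, beside 36.5% and 32.4% of all genes. With the replicate block 4 passed at 24 h, all higher (IRF1, TAP1, B2M and HLA-B, with adjusted p of 0.044, 0.029, 0.035 and 0.041), and 3 at 48 h (IRF1 and ERAP1 higher and CALR lower, with adjusted p of 0.046, 0.028 and 0.018). Under that fit 38.8% of all genes passed at 24 h and 32.2% at 48 h, in either direction. Over both times 3 of 13 rose (23.1%), near the 20.4% of all genes that rose, and 7 with the block, where 3051 of 10907 genes rose. Those 3 were IRF1, the interferon regulatory factor (0.62, adjusted p = 0.044), TAP1, the peptide transporter beside PSMB9 (0.61, adjusted p = 0.026), and ERAP1, the peptide trimming enzyme (0.37, adjusted p = 0.027). CALR, a chaperone of the endoplasmic reticulum, fell (-0.67, adjusted p = 0.021). TAP1 was 9.99, 8.75 and 9.72 with Nnm at 24 h, against 8.69, 8.78 and 8.70 in controls, so that Nnm replicate 2 lay within the controls. At 48 h it was 9.23, 8.79 and 9.39 with Nnm, against 8.72, 8.68 and 8.62 in controls. The list's median was 0.18 at 24 h and 0.16 at 48 h, and TAP2, which lies at the same locus, changed by 0.00 and -0.10.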

How the data were processed

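Expression was measured in 12 HK-2 cultures on Affymetrix arrays with 54675 probe sets. The deposited values are log2 expression values made by the authors with GCRMA, which corrects background by probe sequence, normalises by quantiles and summarises probe sets, per the submitters' processing notes. The sources used here give neither its version nor which arrays were normalised together. The log base was read from the range of the values. The number of arrays limits the precision, and p-values measure the spread between these arrays.

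Probe sets were named from the platform's annotation (1 symbol only). A probe set was kept if 3 or more arrays exceeded a log2 of 4. The kept probe set with the highest 12-array mean stood for its gene, leaving 10907 genes. Each contrast was tested over all 12 arrays and 4 group means by lmFit and eBayes (limma 3.58.1, R 4.3.3), with Benjamini-Hochberg adjustment over all genes and a threshold of 0.05. Replicate numbers paired the arrays: residuals of same-numbered arrays of one time had correlations between 0.34 and 0.51 in all 6 pairs, so the fit with the number as a block is given beside counts of calls that it moved.

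Values are given for members past the threshold, the 3 core and 3 19S subunits with the largest change at each time, the catalytic subunits, activators, PSMF1, the PSMG chaperones and the 2 smallest p of the difference between times, and for up to 4 genes of each other list by p over both times. The members and lists were chosen with earlier results of these data known. Promoter windows came from RefSeq (GRCh38.p14). Figures were drawn with matplotlib 3.10.9. The alternatives tried were the low-value filter, the probe set rule, the normalisation, limma's settings, the block, the groups fitted and leaving out arrays.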

Additional observations from a re-analysis of the deposited data

Results flagged for a closer look

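PSMB10 fell with Nnm at 24 h and was higher at 48 h in every pair of arrays with the same replicate number, by -0.47, -0.43 and -0.80 at 24 h and by 0.26, 0.05 and 0.06 at 48 h. The difference between the times was 0.69 (SE 0.18), and in limma it did not pass after adjustment over all genes (adjusted p = 0.70). PSME3IP1 showed the same pattern with smaller values, -0.13, -0.03 and -0.28 at 24 h and 0.04, 0.06 and 0.11 at 48 h, a difference of 0.22 (SE 0.16, adjusted p = 0.86). Neither time passed by itself (adjusted p = 0.37 and 0.70), and 1 of its 4 kept probe sets gave positive changes instead, of 0.40 at the earlier time and 0.63 at the later one. PSMB10 and PSME3IP1 were flagged from these same values because their changes differed between the times, so the pattern is no separate support. The share of all genes with such a pattern is not given here.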

How the results depend on the processing

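The signs of the 4 particle medians and of every change past the threshold held under all alternatives run, while the counts of calls moved. At 24 h the 9 members past the threshold became 19 with array weights, 22 with the replicate block, 3 with the 2 groups fitted alone and 0 to 12 with 1 array left out. At 48 h the 6 became 10 with the mean of probe sets, 20 with array weights, 15 with trend, 15 with trend and robust, 25 with the block, 2 with the groups alone, 17 without both Nnm replicate 2 arrays and 0 to 14 with 1 array left out. For the mean of both times the 25 became 18 to 26 with 1 array left out. The 0 members of the control time contrast became 10 with the block, and the 0 of the Nnm time contrast became 8 with array weights, 4 with the block, 1 without both Nnm replicate 2 arrays and 0 to 1 with 1 array left out. With the block 38.8% of all genes passed for Nnm at 24 h and 32.2% at 48 h. In the control and Nnm time contrasts 8.47% and 2.29% did. Shares of all genes under the other alternatives are not given here, so those counts do not separate the members from the whole array. The core median at 24 h (-0.25) was -0.32 with the mean of probe sets, -0.19 with quantile normalisation, -0.22 with array weights, -0.29 without both Nnm replicate 2 arrays and -0.29 to -0.18 with 1 array left out. The 19S median at 24 h (-0.39) was -0.42, -0.36 and -0.31 under the first 3 of these and -0.43 to -0.34 with 1 array left out. At 48 h leaving out 1 array gave -0.40 to -0.25 for the core and -0.42 to -0.24 for the 19S particle. The causes were not tested. The 3 arrays a group limit which single changes can pass.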
